A study of Mus musculus with 6 samples.

Results

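Astrocytes are the glial cells that clear glutamate from the synapse, buffer potassium and water at vascular endfeet, share small molecules through gap junctions and feed neurons with metabolites. In injury and inflammation they become reactive, a state in which filament and acute phase genes such as *Gfap*, *Vim* and *Serpina3n* are known to be higher. In the hippocampus their processes wrap the synapses at which long-term potentiation is measured. The 37 genes described here were taken by symbol from the 55421 genes of the deposited table, as known genes of astrocyte identity and reactivity, and each symbol matched 1 row. They comprise 5 genes of transmitter and amino acid handling, 7 of water, ion and endfoot membranes, 2 gap junction genes, 6 metabolic enzymes, 6 genes of transcription and signalling, 7 secreted or coagulation genes and 4 reactive or filament genes.

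To examine these genes under peripheral SP, hippocampal RNA from 6 wild-type C57BL/6N male mice aged 8 to 10 weeks was used. SP, a neuropeptide of sensory nerves, was injected under the skin of 3 mice (100 µL of a 10 µM solution) on 14 consecutive days. The other 3 mice received an equal volume of saline and are called vehicle. SP and vehicle stand throughout for the libraries labelled so, and every direction rests on those labels. There is reason for doubt about how the columns of the table were assigned to the groups, which the files alone could not settle. The study reports the myelin genes *Mag* and *Mbp* as lower after SP. All 12 oligodendrocyte markers counted below, a list that holds neither, were fitted higher in the libraries labelled SP. Were the groups exchanged, every direction below would turn, and the sizes and p-values would stay. Each mouse gave 1 library of whole hippocampal tissue, and the replicate number, which the labels call a batch, joins 1 mouse of each group. Because the tissue was not sorted, fewer astrocytes and less RNA per astrocyte cannot be told apart. The libraries held 22349964 to 27605935 counts, so that a count of 0 would allow up to 0.109 to 0.134 CPM. CPM are counts scaled to the normalized library size, as edgeR gives them. This limit was instead scaled to the total counts of each library, and it covers counting error only. Hippocampal neuron markers were present in every library, with summed levels of 1089 to 1139 CPM in vehicle and 1097 to 1317 CPM in SP. Library SP 1 stood apart in choroid plexus genes (181 CPM summed, 2872 CPM or more elsewhere), and library SP 2 in oligodendrocyte genes (4012 CPM summed, at most 2999 CPM elsewhere).

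All 37 genes were well above the detection limit, with at least 75 counts in every library, and all 37 passed the filter on low counts. Together they took 1.15% to 1.19% of the counts of a library. Their summed level was 11480, 11642 and 11923 CPM in vehicle 1, 2 and 3 and 11784, 11875 and 11518 CPM in SP 1, 2 and 3. The groups overlapped, and the lowest and highest libraries were both vehicle libraries. Divided by the merged exon length, the highest levels were those of *Apoe*, a lipid carrier, at 599 CPM per kilobase, *Sparcl1*, a secreted synapse-organizing protein, at 479, and *Glul*, glutamine synthetase, at 360. The lowest were *Bmpr1b*, a bone morphogenetic protein receptor, at 3.55 CPM per kilobase, *Cd44*, the hyaluronan receptor, at 0.856, and *Chrdl1*, a secreted antagonist of bone morphogenetic proteins, at 0.623. *Gfap*, at 66.0 CPM per kilobase, stood next to *Slc1a3* at 69.1, and these neighbours did not differ beyond their spread between libraries.

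In the comparison of SP with vehicle, 0 of the 37 genes reached FDR < 0.1 with |log2FC| > 0.3 in edgeR's quasi-likelihood test over 17069 genes, where 0.0293% of all tested genes did. Limma-voom and DESeq2 with the replicate number as a block also called 0, although that DESeq2 fit gave *Cd44* no adjusted p. DESeq2 without the block called 1 (*Cd44*), where 0.779% of all tested genes were called. An unadjusted p under 0.05 was found for 7 of the 37 (18.9%) with edgeR, against 10.1% of all tested genes, for 7 with limma-voom (9.99% of all tested genes), for 3 with DESeq2 and the block (4.13%) and for 7 with DESeq2 without it (8.11%). Of those found with edgeR, 3 were higher in SP (*Vim*, *S100b* and *Serpina3n*; 4.48% of all tested genes were higher by this rule) and 4 were lower (*Cd44*, *Slc7a10*, *Sox9* and *Mfge8*; 5.59% were lower). The median log2 fold change of the 37 genes was 0.0018, with 19 fitted higher and 18 lower, and that of all tested genes was 0.0015. In 7 of the 37 (18.9%) the 3 SP libraries did not overlap with the 3 vehicle libraries, 3 above (9.19% of all tested genes) and 4 below (9.03%), a share close to the 18.2% of all tested genes.

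The size of a difference that these libraries leave possible was read from the 95% intervals of the fitted log2 fold changes. In 28 of the 37 genes the whole interval lay within 0.3 of 0 on the log2 scale. Of all tested genes this held for 46.4%, and for 64.1% of the 12346 genes expressed at or above the mean level of *Chrdl1*, the lowest of the 37. The median spread between mice of 1 group was 0.082 on the log2 scale in the 37 genes and 0.084 in those 12346 genes. *Cd44* was the only one of the 37 whose log2 fold change exceeded 0.3 in size. The steadiest was *Ndrg2*, an astrocyte-enriched gene of the NDRG family, at 533 to 543 CPM in all 6 libraries.

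**Figure D1:**
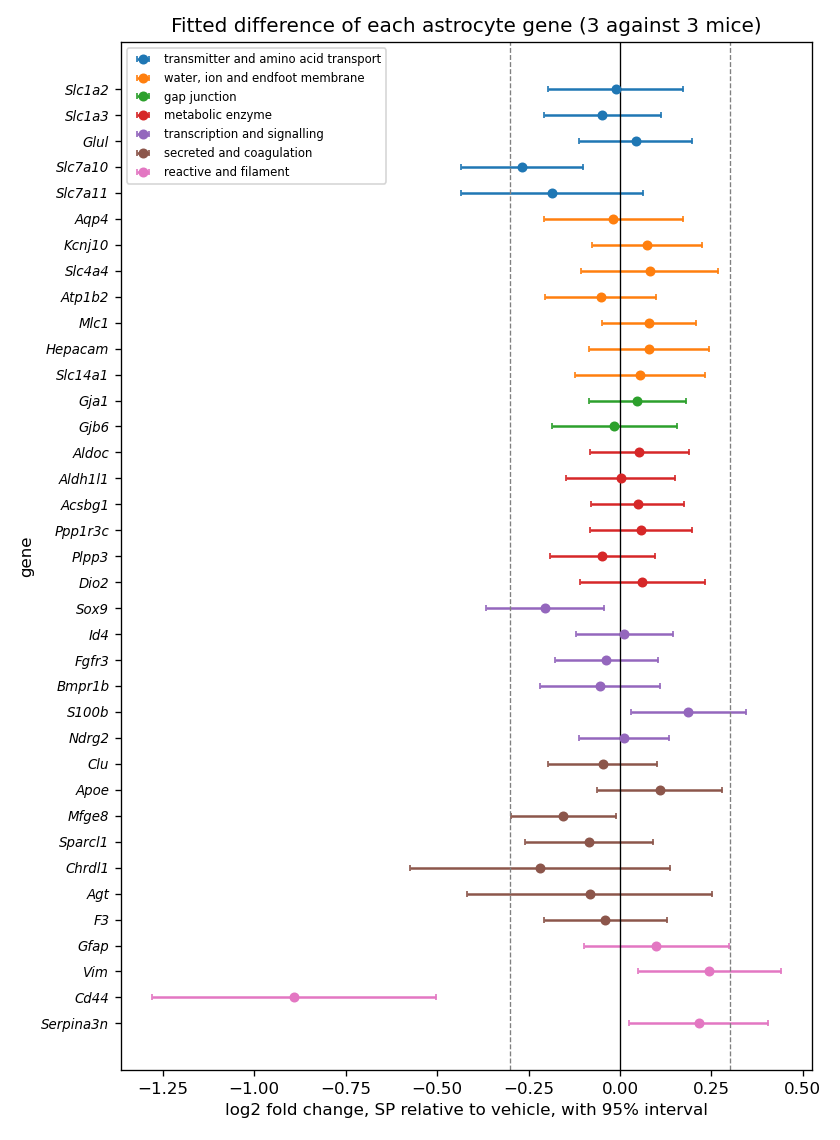
Fitted log2 fold change (horizontal axis, SP relative to vehicle) with its 95% interval for each of the 37 genes (vertical axis, coloured by role), from 3 mice per group. Dashed lines mark 0.3 in each direction. *Cd44* lies apart at -0.89, and 28 of the 37 intervals lie wholly between the dashed lines.

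The glutamate uptake genes overlapped between the groups. *Slc1a2* (ENSMUSG00000005089, chromosome 2 of GRCm38 from 102658659 to 102790784), the main glutamate transporter GLT-1, had 2472, 2468 and 2670 CPM in vehicle 1, 2 and 3 and 2401, 2715 and 2441 CPM in SP 1, 2 and 3. The lowest and the highest library were both SP libraries, and the log2 fold change was -0.01 (95% interval -0.20 to 0.17, FDR 0.973 from edgeR). *Slc1a3*, the glutamate transporter GLAST, had 559, 611 and 631 CPM in vehicle and 602, 574 and 563 CPM in SP. All 3 SP values lay inside the vehicle range, with a log2 fold change of -0.05 (95% interval -0.21 to 0.11). Per kilobase, the level of *Slc1a2* was 2.59 to 3.07 times that of *Slc1a3* over the 6 libraries, with both extremes in SP. *Glul*, which turns glutamate into glutamine, had 1177 ± 56.7 CPM in vehicle and 1214 ± 73.7 CPM in SP (SD, n = 3 mice each).

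Of the amino acid exchangers, *Slc7a10* had an unadjusted p under 0.05 and *Slc7a11* did not. *Slc7a10* (ENSMUSG00000030495, chromosome 7 from 35186385 to 35201114), the transporter Asc-1 for small neutral amino acids including D-serine and glycine, had 37.7, 36.7 and 42.1 CPM in vehicle and 28.6, 30.4 and 38.3 CPM in SP. SP 1 and SP 2 lay below all vehicle libraries, while SP 3 lay among them. The log2 fold change was -0.27 (standard error 0.0713, unadjusted p = 0.00655, FDR 0.359 from edgeR), with differences of -0.40, -0.27 and -0.13 in replicates 1, 2 and 3. *Slc7a10* overlaps *Lrp3* on the opposite strand, which had a mean of 71.6 CPM and a log2 fold change of 0.055 (unadjusted p = 0.325 from edgeR). The strand setting used in the authors' quantification is not given in the sources used here, so the split of reads between *Slc7a10* and *Lrp3* is uncertain. *Slc7a11*, the cystine-glutamate exchanger, had 62.3 ± 6.36 CPM in vehicle and 54.8 ± 5.97 CPM in SP (SD, n = 3 each), a log2 fold change of -0.19 (FDR 0.598 from edgeR) that was -0.022 without replicate 3 and -0.32 without replicate 1. Its lowest library was SP 3, with 48.0 CPM, and SP 1 and SP 2 lay within the vehicle range.

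None of the 7 endfoot and ion genes had an unadjusted p under 0.05 with edgeR, and the intervals of all 7 lay within 0.3 of 0 on the log2 scale. *Aqp4* (ENSMUSG00000024411), the water channel of astrocyte endfeet, had 147, 131 and 146 CPM in vehicle and 153, 146 and 122 CPM in SP. SP 1 was the highest and SP 3 the lowest of the 6 libraries, and the log2 fold change was -0.02 (95% interval -0.21 to 0.17, FDR 0.96 from edgeR). *Kcnj10*, the inward rectifier Kir4.1 that clears potassium, had 146 ± 6.89 CPM in vehicle and 153 ± 8.81 CPM in SP. *Slc4a4*, a sodium bicarbonate cotransporter, was highest in SP 2 with 196 CPM, and the other libraries held 153 to 171 CPM. *Mlc1* and *Hepacam*, partners in one membrane complex of the endfoot, had the same log2 fold change of 0.08, with intervals of -0.05 to 0.21 and -0.08 to 0.24. *Atp1b2*, a sodium pump subunit, had a log2 fold change of -0.05 and *Slc14a1*, the urea transporter, one of 0.05.

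The gap junction genes overlapped as well. *Gja1* (ENSMUSG00000050953, chromosome 10 from 56377330 to 56402513) encodes connexin 43 and had 204, 224 and 230 CPM in vehicle and 227, 228 and 224 CPM in SP. The 3 SP values lay within the vehicle range, with a log2 fold change of 0.05 (95% interval -0.08 to 0.18). *Gjb6*, which encodes connexin 30, had 44.3, 40.5 and 39.3 CPM in vehicle and 43.6, 36.3 and 43.1 CPM in SP, a log2 fold change of -0.02 (95% interval -0.18 to 0.15). SP 2 was its lowest library, and SP 1 and SP 3 lay among the vehicle libraries. Per kilobase, the level of *Gja1* was 1.20 to 1.64 times that of *Gjb6*, lowest in vehicle 1 and highest in SP 2.

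The 6 metabolic genes spanned log2 fold changes of -0.05 for *Plpp3*, a lipid phosphate phosphatase, to 0.06 for *Dio2*, the deiodinase that makes active thyroid hormone. All 6 intervals lay within 0.3 of 0, and 0 of 6 had an unadjusted p under 0.05 with edgeR. *Aldh1l1*, the folate enzyme widely used as a pan-astrocyte marker, had 43.4 ± 1.34 CPM in vehicle and 43.4 ± 1.55 CPM in SP (SD, n = 3 mice each). *Aldoc*, aldolase C of glycolysis, had 590 ± 9.35 CPM against 612 ± 27.1 CPM. *Acsbg1*, an acyl-CoA synthetase, and *Ppp1r3c*, a glycogen-targeting phosphatase subunit, had log2 fold changes of 0.05 and 0.06.

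**Figure D2:**
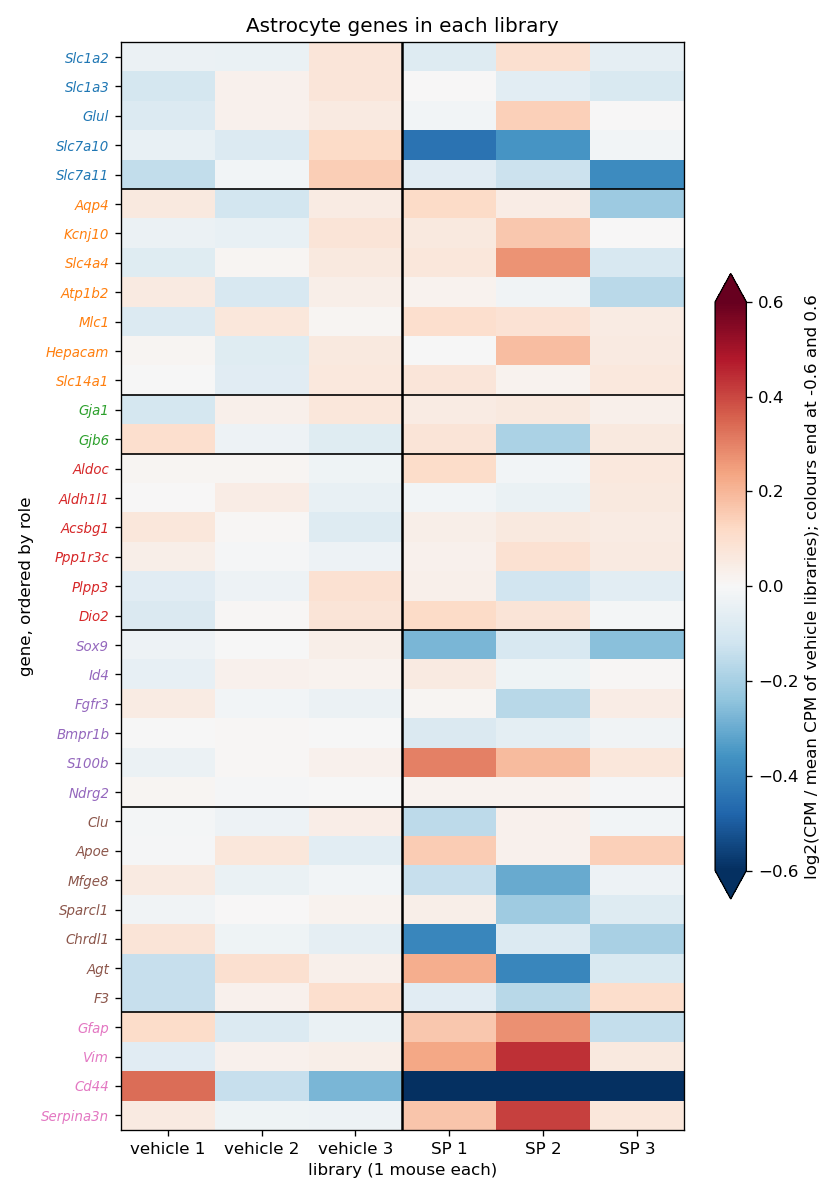
Level of each of the 37 genes (rows, ordered and coloured by role) in each library (columns, 1 mouse each), as log2 of CPM over the mean CPM of the vehicle libraries, with colours that end at -0.6 and 0.6. Most rows are pale in all 6 columns. *Cd44* is below -0.6 in all 3 SP libraries, and *Vim* and *Serpina3n* are at their highest in SP 2.

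Among the genes of transcription and signalling, 2 had an unadjusted p under 0.05 with edgeR, in opposite directions. *Sox9* (ENSMUSG00000000567, chromosome 11 from 112782224 to 112787760), the transcription factor that specifies the astrocyte lineage, had 31.5, 32.0 and 32.9 CPM in vehicle and 26.6, 30.1 and 27.0 CPM in SP. All SP libraries lay below all vehicle libraries, and the closest pair of libraries across the groups was SP 2 and vehicle 1. The log2 fold change was -0.21 (standard error 0.0692, unadjusted p = 0.0196, FDR 0.424 from edgeR). *S100b* (ENSMUSG00000033208, chromosome 10 from 76253853 to 76261159), a calcium-binding protein also made by oligodendrocyte lineage cells, had 74.4, 76.6 and 77.4 CPM in vehicle and 94.0, 86.7 and 79.8 CPM in SP. The SP libraries lay above the vehicle libraries, by a small margin in SP 3. Its log2 fold change was 0.19 (standard error 0.0675, unadjusted p = 0.0264, FDR 0.436 from edgeR), and 0.11 without replicate 1. *S100b* overlaps *Dip2a* on the opposite strand (mean 92.6 CPM, log2 fold change 0.054), and reads of this pair could likewise be divided differently with another strand setting.

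*Bmpr1b* had 21.5, 21.7 and 21.5 CPM in vehicle and 20.3, 20.7 and 21.3 CPM in SP. The groups did not overlap, yet the log2 fold change was only -0.06 (FDR 0.834 from edgeR). *Id4*, an inhibitor of basic helix-loop-helix factors, and *Fgfr3*, a fibroblast growth factor receptor of astrocytes and their progenitors, had log2 fold changes of 0.01 (95% interval -0.12 to 0.14) and -0.04 (95% interval -0.18 to 0.10).

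Secreted genes had a median log2 fold change of -0.082, which was -0.019 without replicate 2, and 1 of 7 had an unadjusted p under 0.05 with edgeR. This was *Mfge8* (ENSMUSG00000030605, chromosome 7 from 79133768 to 79149060), a bridging protein that tags cells for phagocytosis, with 145, 136 and 138 CPM in vehicle and 127, 114 and 137 CPM in SP. SP 3 lay among the vehicle libraries and SP 2 was lowest. The log2 fold change was -0.16 (standard error 0.0616, unadjusted p = 0.0382, FDR 0.465 from edgeR), and -0.10 without replicate 2. *Chrdl1* had 4.77, 4.45 and 4.35 CPM in vehicle and 3.45, 4.28 and 3.95 CPM in SP. The groups of *Chrdl1* did not overlap, but its interval was the widest after that of *Cd44*, from -0.57 to 0.14. Its log2 fold change was -0.22, and -0.098 without replicate 1.

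*Apoe* had 1232 ± 58.2 CPM in vehicle and 1328 ± 65.6 CPM in SP (SD, n = 3 each), a log2 fold change of 0.11 (FDR 0.662 from edgeR), 0.055 without replicate 3 and 0.19 without replicate 2. Microglia also express *Apoe*, and 12 microglia markers had summed levels of 362 to 382 CPM in vehicle and 354 to 377 CPM in SP. *Clu*, clusterin, had 743 ± 18.7 CPM against 720 ± 47.0 CPM and was lowest in SP 1. *Sparcl1* was lowest in SP 2 with 1247 CPM, where the other libraries held 1373 to 1484 CPM, and its log2 fold change of -0.08 was -0.019 without replicate 2. *Agt*, angiotensinogen, varied most between mice of 1 group apart from *Cd44*, with 28.6, 18.8 and 23.1 CPM in SP 1, 2 and 3 against 22.4 to 26.3 CPM in vehicle. Its log2 fold change of -0.08 was -0.30 without replicate 1 and 0.12 without replicate 2. *F3*, tissue factor, had a log2 fold change of -0.04, and 0.036 without replicate 2.

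The 4 reactive genes did not move in one direction. *Gfap* (ENSMUSG00000020932, chromosome 11 from 102887336 to 102900912), the intermediate filament by which reactive astrocytes are usually recognised, had 290, 253 and 261 CPM in vehicle and 300, 324 and 243 CPM in SP. SP 2 was the highest and SP 3 the lowest of the 6 libraries. The log2 fold change was 0.10 (95% interval -0.10 to 0.30, FDR 0.735 from edgeR), and -0.028 without replicate 2, so that the difference was within the spread between mice. *Vim* (ENSMUSG00000026728, chromosome 2 from 13573927 to 13582826), the filament vimentin, had 37.6, 40.1 and 40.4 CPM in vehicle and 46.2, 53.4 and 41.0 CPM in SP. All SP libraries lay above the vehicle libraries, SP 3 only just and SP 2 by most. Its log2 fold change was 0.24 (standard error 0.0832, unadjusted p = 0.0205, FDR 0.424 from edgeR), 0.16 without replicate 2 and 0.35 without replicate 3. Per kilobase, the level of *Gfap* was 6.65 to 8.65 times that of *Vim*, highest in vehicle 1 and lowest in SP 3.

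*Serpina3n* (ENSMUSG00000021091, chromosome 12 from 104406729 to 104414329), a serine protease inhibitor of the acute phase, had 40.4, 38.3 and 38.2 CPM in vehicle and 43.7, 51.8 and 40.8 CPM in SP. As in *Vim*, SP 2 was highest and SP 3 close to the vehicle libraries, without overlap. The log2 fold change was 0.22 (standard error 0.0814, unadjusted p = 0.0317, FDR 0.451 from edgeR) and 0.10 without replicate 2. SP 2 was also the library with the highest summed level of 12 oligodendrocyte markers, which was 2454, 2435 and 2757 CPM in vehicle and 2999, 4012 and 2788 CPM in SP. All 12 markers were detected in every library and were fitted higher in SP, with a median log2 fold change of 0.32 (0 of 12 called, 8 of 12 with an unadjusted p under 0.05 with edgeR). Their median was 0.33 without replicate 1, 0.16 without replicate 2 and 0.48 without replicate 3. The part of oligodendrocytes in the values of *Vim*, *S100b* and *Serpina3n* was not tested.

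*Cd44* (ENSMUSG00000005087, chromosome 2 from 102811141 to 102901665, minus strand) had 9.54, 6.87 and 6.24 CPM in vehicle and 4.47, 3.11 and 4.58 CPM in SP. All SP libraries lay below all vehicle libraries, with vehicle 1 highest and SP 2 lowest. Its level was 7.55 ± 1.75 CPM in vehicle and 4.06 ± 0.818 CPM in SP (SD, n = 3 mice each), a log2 fold change of -0.89 (standard error 0.166, 95% interval -1.28 to -0.50). The unadjusted p was 0.000872, and the FDR over all genes was 0.308 from edgeR, above the threshold. The differences in replicates 1, 2 and 3 were -1.09, -1.14 and -0.45. The FDR was 0.00295 with no filter on low counts, 0.0135 with DESeq2 without the replicate block and 0.0983 without replicate 3, which would place *Cd44* past the thresholds. *Cd44* is on the list of changed genes that the study made from these same samples, so its value here is not independent evidence. As for the other tested genes of that list, the sign given by the study is opposite to the one here.

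*Cd44* is also made by fibroblasts, immune cells and some neurons, and it was by level per kilobase one of the least expressed of the 37 genes. Of 10 markers of leptomeningeal fibroblasts, all were detected in every library and all were fitted lower in SP (median log2 fold change -0.28, 0 called, 3 with an unadjusted p under 0.05 with edgeR). Their summed level was 385, 373 and 447 CPM in vehicle 1, 2 and 3 and 276, 242 and 349 CPM in SP 1, 2 and 3. Of 10 markers of neocortical and subplate neurons, 9 were fitted lower (median -0.21, 0 called, 4 with an unadjusted p under 0.05 with edgeR), with sums of 436 to 475 CPM in vehicle and 378 to 445 CPM in SP. The part of these cells in the value of *Cd44* was not tested.

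**Figure D3:**
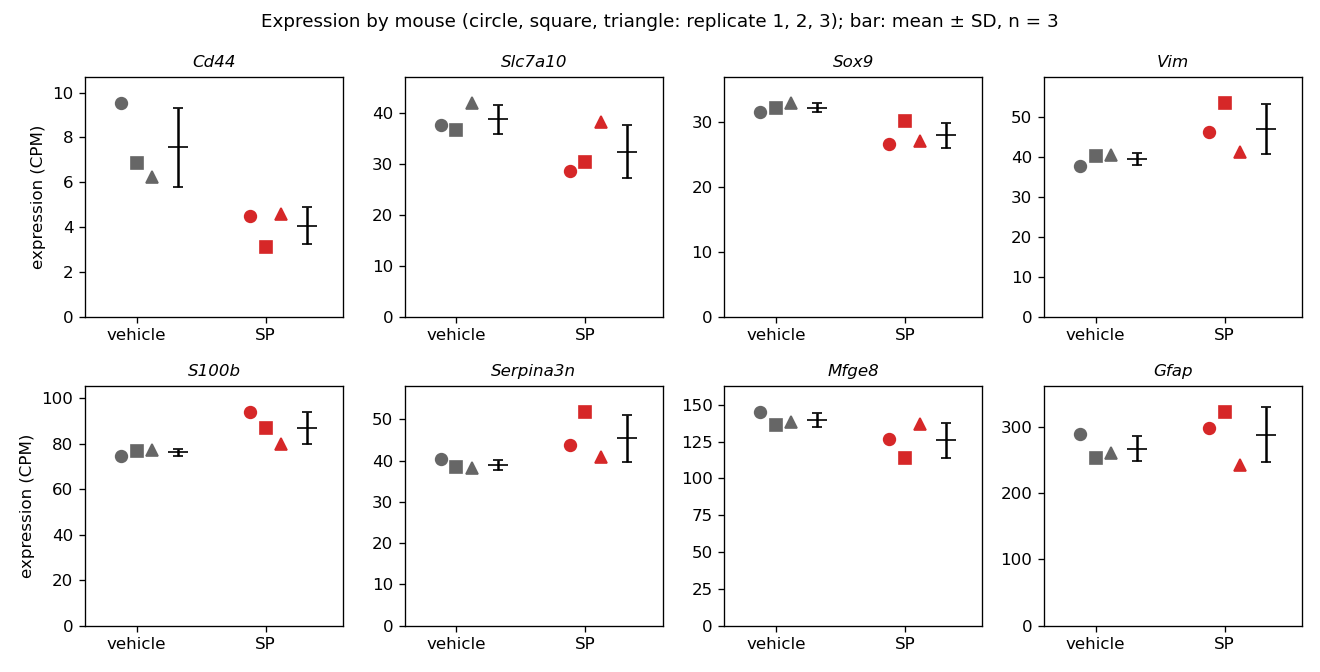
Expression in CPM (vertical axes, from 0) of the 7 genes with an unadjusted p under 0.05 and of *Gfap*, in vehicle (grey) and SP (red) mice. Symbols mark replicates 1, 2 and 3 and bars give mean ± SD of 3 mice. *Cd44*, *Sox9*, *Vim*, *S100b* and *Serpina3n* show no overlap of the groups, and in *Vim* and *Serpina3n* the SP 3 triangle is close to the vehicle points.

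The sequences before the transcription start of the 3 reactive genes that differed most, in both directions, are shown because these genes share a role but not a direction. They are 250 bases each from RefSeq on GRCm38.p6, 5′ to 3′ on the strand of the gene, with a TATAAA match in capitals. RefSeq and GENCODE place the starts of *Vim* and *Serpina3n* differently, and the *Vim* stretch lies inside the span given above for the gene.
Vim promoter, chr2:13574061-13574310, plus strand: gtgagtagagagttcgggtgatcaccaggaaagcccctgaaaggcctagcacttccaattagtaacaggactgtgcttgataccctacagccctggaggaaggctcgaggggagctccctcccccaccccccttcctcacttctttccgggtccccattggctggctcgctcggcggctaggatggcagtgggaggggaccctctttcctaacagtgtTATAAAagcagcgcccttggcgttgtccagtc
Serpina3n promoter, chr12:104406458-104406707, plus strand: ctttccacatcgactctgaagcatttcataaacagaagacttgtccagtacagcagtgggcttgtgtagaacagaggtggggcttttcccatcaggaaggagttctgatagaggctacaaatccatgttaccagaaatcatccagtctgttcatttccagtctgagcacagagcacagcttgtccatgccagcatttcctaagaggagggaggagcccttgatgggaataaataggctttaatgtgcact
Cd44 promoter, chr2:102901666-102901915, minus strand: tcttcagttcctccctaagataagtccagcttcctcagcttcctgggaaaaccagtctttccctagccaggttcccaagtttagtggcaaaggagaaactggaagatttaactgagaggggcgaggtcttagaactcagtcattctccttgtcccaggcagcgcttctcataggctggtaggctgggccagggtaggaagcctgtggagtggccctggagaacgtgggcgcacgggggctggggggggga

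Of the 3 stretches, only that of *Vim* held TATAAA, from 32 to 27 bases before the start. The letters were searched on both strands in the 250 bases before the start of 22862 genes, and 13.6% of them held TATAAA, as did 4 of the 24 genes of the set with an entry. The STAT motif TTCNNNGAA and the AP-1 motif TGANTCA, of factors known from glial reactivity, neither hold TATAAA nor each other and were in none of the 3 stretches. TTCNNNGAA was found in 4 of the 24 genes (*Slc1a3*, *Slc7a11*, *Acsbg1* and *Agt*) and in 7.23% of all 22862. TGANTCA was found in 2 of the 24 (*Gja1* and *F3*) and in 6.96% of all. A match is a description of letters and not of a bound site. The *Serpina3n* and *Cd44* stretches were 46.4% and 56.4% G or C.

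Other astrocyte genes were counted from lists that hold none of the 37. Of 50 further astrocyte-enriched genes, 0 were called by edgeR, 5 were higher and 2 lower at an unadjusted p under 0.05, and the median log2 fold change was 0.033. The 3 with the smallest p among those higher were *Mt3* and *Mt1*, metal-binding metallothioneins, with log2 fold changes of 0.25 and 0.22, and *Slc15a2*, a peptide transporter, with 0.24. Those lower were *Slc39a12*, a zinc transporter, with -0.20, and *Cspg5*, neuroglycan C, with -0.15. All 5 had an FDR of at least 0.394 from edgeR. The summed level of the 50 genes was 4409 to 4479 CPM in vehicle and 4410 to 4565 CPM in SP.

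Genes that are known to mark reactive astrocytes beside *Gfap*, *Vim*, *Cd44* and *Serpina3n* were counted next. Of 10 pan-reactive genes 8 could be tested, of which 0 were called and 1 had an unadjusted p under 0.05 with edgeR. This was *Cp*, ceruloplasmin, which was lower at -0.24 on the log2 scale. *Lcn2* and *Timp1*, which are very low in resting tissue, were at 0.036 to 0.202 CPM and 0.045 to 0.298 CPM over the 6 libraries and were not tested. Of 24 other reactive genes 22 were tested, 0 were called, and 2 were higher at an unadjusted p under 0.05 with edgeR. They were *Cd109*, a membrane protein that binds transforming growth factor, at 0.55 (FDR 0.348), and *Tm4sf1*, a tetraspan protein, at 0.33 (FDR 0.338). The medians of both reactive lists were -0.10 and 0.015.

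The other cell types of the tissue were compared by the same counts, to set the 37 genes beside them. Microglia, endothelial and mural, neuron, oligodendrocyte precursor and ependymal markers had medians of -0.0011, 0.024, -0.00048, 0.016 and 0.025, the last being 0.33 without replicate 1 and -0.079 without replicate 2. By edgeR 0 were called, and 0, 1, 1, 1 and 2 of them had an unadjusted p under 0.05. Hippocampal neuron markers had a median of 0.22, with 9 of 10 fitted higher and 4 at an unadjusted p under 0.05, and one of 0.098 without replicate 2, with 4 higher and 2 lower by that rule. Choroid plexus markers had a median of -1.12, with 10 of 10 fitted lower and 3 at an unadjusted p under 0.05. The median was -0.31 without replicate 1, the pair that holds SP 1, -1.60 without replicate 2 and -1.74 without replicate 3. In these refits 7, 10 and 6 of the 10 were lower at an unadjusted p under 0.05 with edgeR. The sum of the 37 astrocyte genes lay between -0.025 and 0.030 on the log2 scale around the vehicle mean, and that of the 50 further astrocyte-enriched genes between -0.014 and 0.036. In SP 2 the oligodendrocyte sum reached 0.65 and the leptomeningeal sum -0.73. Most of the leptomeningeal sum came from *Igf2* and *Dcn* (125 and 24.9 CPM in SP 2), and *Lum* of the same list was highest in SP 2.

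**Figure D4:**
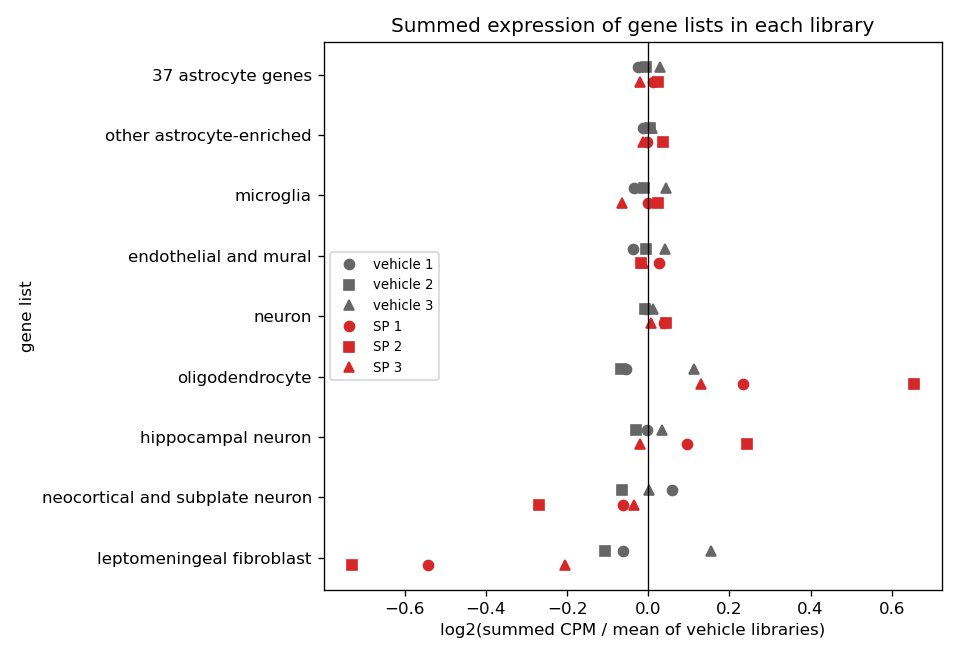
Summed CPM of each gene list in each library, as log2 relative to the mean of the vehicle libraries (horizontal axis), with vehicle in grey and SP in red and the symbol giving the replicate. The 37 astrocyte genes lie between -0.025 and 0.030 in all libraries, whereas SP 2 is at 0.65 for oligodendrocyte and at -0.73 for leptomeningeal genes. Choroid plexus genes, far lower in SP 1, are not drawn.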

How the data were processed

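Stranded mRNA libraries were made from TRIzol-extracted RNA. The authors used TrimGalore for trimming, STAR for alignment to GRCm38 and Salmon for quantification. They deposited estimated counts per gene (expected counts), scaled neither for library size nor for length. Tool versions and the annotation release are not given in the sources used here. Counts were rounded (9.77% of the values were not whole). The columns named as controls were matched to the vehicle mice by treatment label and number. Genes were filtered with edgeR's filterByExpr (minimum count 10, minimum total 15) and normalized by TMM (factors 0.993 to 1.01). The test was the quasi-likelihood F-test in edgeR 4.0.16 (R 4.3.3). The replicate number entered as a block, since the study's methods adjust for replicates. FDR is Benjamini-Hochberg over 17069 genes. The labels call this number a batch. Across genes, deviations from the group means (log2 of CPM plus 1) of same-numbered mice had r of 0.0141, -0.0956 and 0.0232. Those of differently numbered mice had r from -0.125 (vehicle 3 with SP 1) to 0.110 (vehicle 2 with SP 1). The same-numbered values lay inside that range. DESeq2 1.42.0 and limma 3.58.1 were alternatives, and the fits were tested on simulated data. With 3 mice per group, an exact two-sided permutation test of 1 gene that ignores the replicate number cannot give a p below 0.1. Permuting only within replicate numbers would raise that limit. Lengths and positions came from GENCODE M21, promoters from RefSeq.

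The 37 genes and the lists were chosen with earlier results of these data known. The text names all 37, with values in every library for those with an unadjusted p under 0.05 or groups that do not overlap, the 4 reactive genes and the main transport and coupling genes. From the other astrocyte lists it names up to 3 genes per direction with an unadjusted p under 0.05. *Lcn2*, *Timp1*, *Lrp3*, *Dip2a*, *Gsg1l*, *Cbln4*, *Igf2*, *Dcn* and *Lum* were named after their values were seen.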

Additional observations from a re-analysis of the deposited data

How the results depend on the processing

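The count of 0 among the 37 genes was 1 with no filter on low counts (*Cd44*) and 1 with DESeq2 with no replicate block (*Cd44*). It was 0 to 1 when both mice of 1 number or single libraries were left out (*Cd44* without replicate 3, *Slc7a10* without SP replicate 3 and the block, FDR 0.0737). DESeq2 with the block gave *Cd44* no adjusted p. *Cd44* had an unadjusted p under 0.05 in all 17 refits, from -1.12 to -0.70. The median of the 37 genes stayed within -0.0073 and 0.018. Over all genes, 5 were called. This count was 0 at an FDR under 0.05 and with at least 10 counts in every library. It was 2 with no replicate block, 2 with limma-voom and 384 with no filter. DESeq2 called 36 with the block and 133 with no block. With both mice of 1 number left out, the count was 9 to 36. With 1 library left out and no block, the count was 274 without SP 3 and 1 to 7 otherwise. The replicate block changed no call among the 37 genes in edgeR.

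Of the 37 genes, 19 kept their sign in all 17 refits. *Aldh1l1*, fitted at 0.0018, was -0.0044 with no filter, -0.0044 with at least 10 counts in every library, -0.00064 with relative log expression, -0.00068 with DESeq2 and the block and -0.00051 without it. With mice left out, the range was -0.053 to 0.043 for *Aldh1l1*, -0.086 to 0.045 for *Slc1a2*, -0.13 to 0.0063 for *Slc1a3*, -0.0079 to 0.088 for *Glul*, -0.10 to 0.10 for *Aqp4*, -0.012 to 0.20 for *Slc4a4*, -0.12 to 0.016 for *Atp1b2*, -0.011 to 0.13 for *Hepacam*, -0.0083 to 0.089 for *Gja1* and -0.094 to 0.069 for *Gjb6*. It was -0.12 to 0.0014 for *Plpp3*, -0.0093 to 0.13 for *Dio2*, -0.035 to 0.045 for *Id4*, -0.097 to 0.027 for *Fgfr3*, -0.099 to 0.0022 for *Clu*, -0.30 to 0.12 for *Agt*, -0.12 to 0.036 for *F3* and -0.028 to 0.21 for *Gfap*. Within these ranges, further values of opposite sign to the full fit included 0.025, 0.019, 0.0070 and 0.0039 for *Slc1a2* (without vehicle 3, SP 1, SP 3 and replicate 1). They also included 0.012, 0.0085 and 0.073 for *Aqp4* (without vehicle 1, vehicle 3 and SP 3). Others were -0.023 and -0.032 for *Aldh1l1* (vehicle 3, SP 3) and -0.016 and -0.014 for *Id4* (vehicle 1, SP 1). *Agt* was at 0.071 (SP 2) and *F3* at 0.013 (vehicle 3). Without replicate 2, *Slc4a4* was at -0.0075, *Gjb6* at 0.056 and *Fgfr3* at 0.020. Without replicate 1, *Clu* was at 0.00076. The causes were not tested. Leaving out 1 library leaves a group of 2 mice, whose spread is taken from the pooled fit.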
